A study of Mus musculus with 35 samples.

Results

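The Fc gamma receptor genes were taken by name: Fcgr1, Fcgr2b, Fcgr3 and Fcgr4, with Fcer1g, the gene of the FcR gamma chain. Of these 5 genes, 3 (Fcgr2b, Fcgr3 and Fcer1g) are listed among the 11982 gene names of the expression table, and all 3 passed the filter on low values. Fcgr1 and Fcgr4 were not analysed here, and the table lists no gene whose highest value is under 1 RPKM, a read density divided by transcript length and by library depth. JMJD1B, encoded by Kdm3b, is a histone demethylase, and the study asked how its loss affects histone methylation and gene expression in blood-forming cells. Hematopoietic stem and progenitor cells (HSPCs) came from the bone marrow of mice of the labelled strain 129P2xC57BL/6J. They were wild type (WT) or JMJD1B-/-, a knockout made by gene trap. Polyadenylated RNA was sequenced from 2 biological replicates of each genotype, and no agent was given. Neither the gate that defined the HSPCs nor the age of the mice behind each RNA library is given in the labels.

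Fc gamma receptors bind the constant part of immunoglobulin G, and so let myeloid cells and NK cells respond to antibody-coated particles and immune complexes. The receptors of Fcgr1, Fcgr3 and Fcgr4 are activating and signal through the FcR gamma chain, whose ITAM motif recruits the kinase Syk. The receptor of Fcgr2b carries an ITIM motif, recruits the phosphatase SHIP-1 (Inpp5d) and opposes activation. In bone marrow, the CD16 and CD32 proteins of Fcgr3 and Fcgr2b separate granulocyte-monocyte progenitors, which carry much of them, from other myeloid progenitors, which carry less. The FcR gamma chain also belongs to the high-affinity IgE receptor of basophils and mast cells, together with the products of Fcer1a and Ms4a2. These are bulk samples, in which fewer cells of a type and less RNA per cell cannot be told apart.

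The read depth, estimated from the values themselves, was 17500000 and 24600000 reads in WT, 6100000 reads in JMJD1B-/- replicate 1 and 21000000 reads in JMJD1B-/- replicate 2. JMJD1B-/- replicate 1 was thus the shallowest library, and 3 reads on a transcript of 1 kb equal 0.491 RPKM in it, against 0.122 to 0.171 RPKM in the others. These floors and all intervals from reads cover counting error only. Kdm3b was read at 31.0 and 24.3 RPKM in the WT libraries and at 4.00 and 4.63 RPKM in the JMJD1B-/- libraries. Its JMJD1B-/- mean was 15.6% of the WT mean (log2 fold change −2.65, SE 0.24, limma adjusted p = 0.0314), so both libraries of the knockout match their label. The stem and progenitor marker Kit, a receptor tyrosine kinase, was read at 51.6 to 92.7 RPKM in the 4 libraries. All 12 markers chosen for stem and multipotent progenitors were among the genes listed, at widely different levels. Procr, the lowest of them, was read at 0.180 to 1.47 RPKM, near the floors above in the JMJD1B-/- libraries.

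The 250 bases before the transcription start of the listed members are shown because Fcgr3 and Fcgr2b had JMJD1B-/- libraries on both sides of WT and Fcer1g did not. They come from RefSeq (GRCm38.p6) and lie on the minus strand of chromosome 1: Fcgr2b at chr1:170976072-170976321, Fcgr3 at chr1:171059404-171059653 and Fcer1g at chr1:171234350-171234599. Capitals mark GAGGAA or its reverse complement TTCCTC, a sequence that PU.1 and other ETS factors bind, and the shorter ETS core GGAA is unmarked.
Fcgr2b: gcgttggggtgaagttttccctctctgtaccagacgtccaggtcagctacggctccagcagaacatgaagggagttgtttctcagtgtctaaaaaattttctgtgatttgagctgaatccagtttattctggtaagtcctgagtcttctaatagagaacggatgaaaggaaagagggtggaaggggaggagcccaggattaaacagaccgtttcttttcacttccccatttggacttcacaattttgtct
Fcgr3: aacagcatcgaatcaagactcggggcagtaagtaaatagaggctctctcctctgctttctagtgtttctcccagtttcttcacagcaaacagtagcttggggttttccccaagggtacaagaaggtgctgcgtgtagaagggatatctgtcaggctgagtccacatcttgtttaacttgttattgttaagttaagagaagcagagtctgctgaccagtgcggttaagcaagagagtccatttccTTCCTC
Fcer1g: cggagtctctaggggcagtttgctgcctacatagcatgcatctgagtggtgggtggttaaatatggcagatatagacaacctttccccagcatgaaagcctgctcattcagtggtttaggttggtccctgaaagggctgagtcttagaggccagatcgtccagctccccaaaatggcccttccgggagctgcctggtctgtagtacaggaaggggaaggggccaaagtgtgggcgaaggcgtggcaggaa
The Fcgr3 window holds 1 such match, in the last 6 bases before this start and 15 bases before a second start that RefSeq gives. The windows of Fcgr2b and Fcer1g hold no GAGGAA or TTCCTC, though both hold the shorter core GGAA. On either strand, 23.3% of 32851 RefSeq promoter windows of the same length hold GAGGAA. None of the 3 windows holds TATAAA (12.4% of all windows) or GATAAG (6.55%), searched on both strands.

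Fcgr3 and Fcgr2b were read on both sides of the WT libraries in the 2 JMJD1B-/- libraries, and Fcer1g was read below the WT libraries in both. Fcgr3, the activating low-affinity receptor, was read at 13.2 and 9.59 RPKM in WT replicates 1 and 2, and at 18.1 and 1.55 RPKM in JMJD1B-/- replicates 1 and 2. JMJD1B-/- replicate 1 was the highest of the 4 libraries at 1.59 times the WT mean, and JMJD1B-/- replicate 2 the lowest at 0.136 times. The genotypes overlapped, with means of 11.4 ± 2.53 RPKM in WT and 9.80 ± 11.7 RPKM in JMJD1B-/- HSPCs (SD, n = 2 libraries each).

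Fcgr2b, the inhibitory receptor, had the same order of the 4 libraries as Fcgr3. It was read at 10.8 and 9.11 RPKM in the WT libraries, and at 17.1 and 2.72 RPKM in JMJD1B-/- replicates 1 and 2. Against the WT mean, JMJD1B-/- replicate 1 stood at 1.71 times and replicate 2 at 0.272 times. The mean over JMJD1B-/- libraries was 99.2% of that over WT libraries, a value that neither JMJD1B-/- library was near.

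Fcer1g, the signalling chain, was read at 25.9 and 19.9 RPKM in the WT libraries, and at 16.5 and 3.97 RPKM in JMJD1B-/- replicates 1 and 2. The genotypes did not overlap, with JMJD1B-/- the lower, and the means of 22.9 ± 4.23 RPKM in WT and 10.3 ± 8.88 RPKM in JMJD1B-/- HSPCs (SD, n = 2 each) put the knockout at 44.8% of WT. In WT libraries Fcer1g was the highest member by RPKM, a scale per transcript length, and Fcgr3 and Fcgr2b did not differ there beyond the spread between the libraries.

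**Figure D1:**
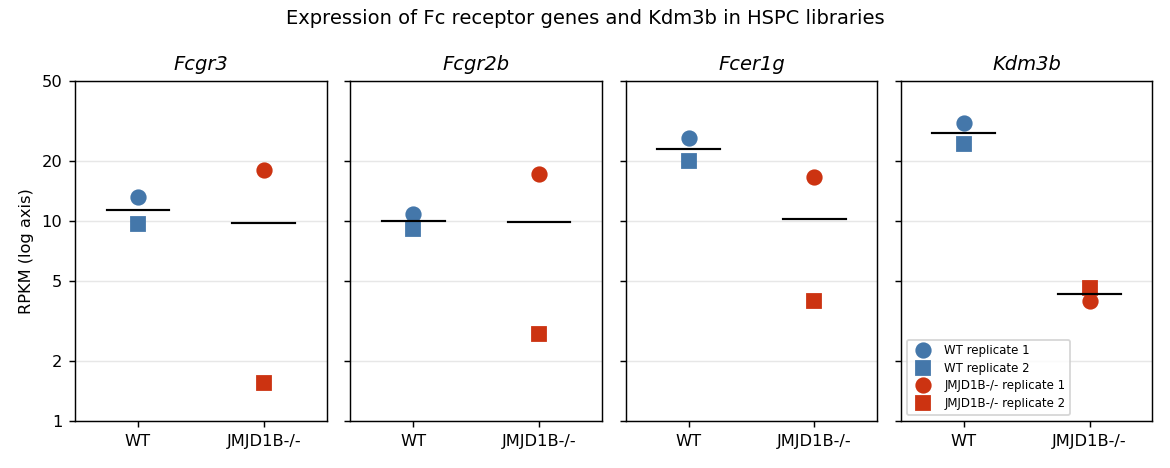
RPKM of Fcgr3, Fcgr2b, Fcer1g and Kdm3b in each library, on a log axis; points are libraries (circle, replicate 1; square, replicate 2) and lines are group means, n = 2. For Fcgr3 and Fcgr2b the JMJD1B-/- libraries stand above and below both WT libraries, for Fcer1g and Kdm3b both stand below.

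In the limma fit of log2(RPKM + 0.1) across 11863 genes, no member passed an adjusted p of 0.05. The log2 fold change was −1.05 for Fcgr3 (SE 0.94, 95% interval −3.25 to 1.15, adjusted p = 0.734) and −0.53 for Fcgr2b (SE 0.72, interval −2.22 to 1.16, adjusted p = 0.834). For Fcer1g it was −1.47 (SE 0.58, interval −2.82 to −0.12, unadjusted p = 0.0362, adjusted p = 0.469). The intervals of the receptor genes hold both a fall and a rise of more than 2-fold, so these libraries leave the direction of their difference undetermined. At an unadjusted p under 0.05, 1 of the 3 members was lower, against 6.33% of all genes tested, and none was higher, against 3.81%. After adjustment 0.0337% of all genes were lower and 0.00843% higher. No gene was lower after adjustment under median-ratio scaling, quantile normalization, the gene-by-gene test or limma without a trend, so the adjusted calls of Kdm3b and of the genes named further on are lost there. The unadjusted p of Fcer1g in limma was 0.0716 with median-ratio scaling, 0.0714 with quantile normalization and 0.104 without a trend, and 0.29 in the gene-by-gene test. Leaving out WT replicate 1, WT replicate 2 or JMJD1B-/- replicate 2 gave an unadjusted p of 0.138, 0.0685 or 0.0775 in limma. The share of all genes with both JMJD1B-/- libraries below both WT libraries was 22.7%, so the position of Fcer1g is a common one, and the share above was 20.1%. Over all genes, 751 were lower and 452 higher at an unadjusted p under 0.05, and quantile normalization gave a more even 714 and 671. With 2 libraries in each genotype, the smallest two-sided p of an exact permutation test is 0.333.

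The sign of the receptor differences was set by which JMJD1B-/- library was used. Without JMJD1B-/- replicate 2, the log2 fold change was 0.68 for Fcgr3 and 0.78 for Fcgr2b (limma adjusted p = 0.167 and 0.10), and −0.46 for Fcer1g (adjusted p = 0.291). Without JMJD1B-/- replicate 1, it was −2.78 for Fcgr3, −1.83 for Fcgr2b and −2.49 for Fcer1g (limma adjusted p = 4.65e-06, 0.000304 and 1.56e-06). Each of these fits assumes that the lone JMJD1B-/- library varies as the WT libraries do, and the gap between the JMJD1B-/- libraries was wider than that.

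**Figure D2:**
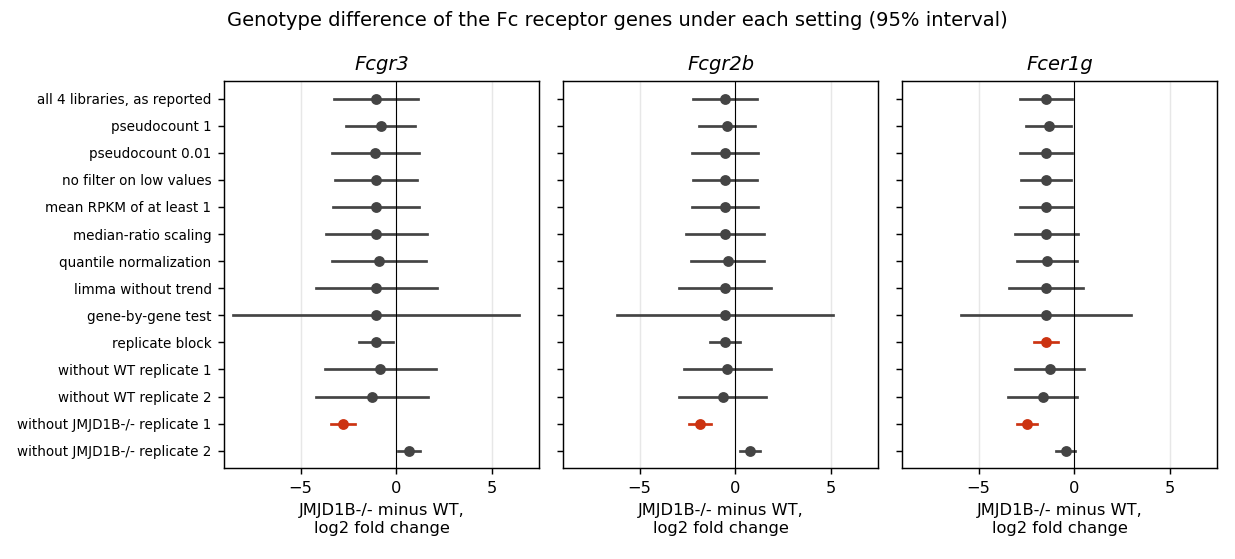
Genotype difference of Fcgr3, Fcgr2b and Fcer1g as log2 fold change with its 95% interval under each setting; red marks an adjusted p under 0.05. Without JMJD1B-/- replicate 2 the points of Fcgr3 and Fcgr2b move to 0.68 and 0.78, above 0, and without JMJD1B-/- replicate 1 all 3 genes lie at −1.83 or lower.

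The gap between the JMJD1B-/- libraries was among the wide ones of the table. JMJD1B-/- replicate 1 exceeded replicate 2 by 11.7-fold in Fcgr3, 6.29-fold in Fcgr2b and 4.16-fold in Fcer1g, while WT replicate 1 exceeded WT replicate 2 by 1.37-fold, 1.19-fold and 1.30-fold in these genes. A gap as wide or wider in either direction was held by 0.717%, 2.10% and 4.03% of all genes tested, and the median absolute log2 difference over all genes was 0.36 between the JMJD1B-/- libraries and 0.22 between the WT libraries. On a transcript of 1 kb, the Fcgr3 values would rest on 110 reads in JMJD1B-/- replicate 1 and 32.5 reads in replicate 2, with exact Poisson 95% intervals of 14.8 to 21.7 and 1.08 to 2.21 RPKM. Of all genes tested, 5.56% had JMJD1B-/- replicate 1 above and replicate 2 below both WT libraries as Fcgr3 and Fcgr2b did, and 17.0% had the opposite order. The extracellular parts of Fcgr3 and Fcgr2b are near-identical paralogs, so reads could be split between them, and how the counting treated such reads is not given in the sources used here.

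The balance of activating and inhibitory receptor was read within each library, where no scaling between libraries enters. The ratio of Fcgr3 to Fcgr2b RPKM was 1.21 and 1.05 in WT, 1.06 in JMJD1B-/- replicate 1 and 0.571 in replicate 2. The lowest ratio was that of JMJD1B-/- replicate 2, and JMJD1B-/- replicate 1 lay between the WT libraries. The ratio of Fcer1g to Fcgr3 was 1.97 and 2.08 in WT, 0.916 in JMJD1B-/- replicate 1 and 2.56 in replicate 2. These ratios are given as values, with no test.

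The subunits of the IgE receptor that share the FcR gamma chain were read lower in JMJD1B-/- than in WT HSPCs with no overlap. The difference between their log2 fold changes and that of Fcer1g was not tested. Fcer1a, the IgE-binding subunit, was read at 34.8 and 31.1 RPKM in WT and at 9.54 and 2.10 RPKM in JMJD1B-/- libraries (log2 fold change −2.84, limma adjusted p = 0.206). Ms4a2, the beta subunit, was read at 34.7 and 30.3 RPKM in WT and at 5.85 and 2.51 RPKM in JMJD1B-/- libraries (log2 fold change −3.04, limma adjusted p = 0.064). The ratio of Fcer1g to Fcer1a was 0.745 and 0.641 in WT and 1.73 and 1.89 in JMJD1B-/- libraries, and the groups did not overlap. Of the 5 other Fc receptor and Fc-binding genes tested, these 2 were lower at an unadjusted p under 0.05 and none was higher, with a median log2 fold change of −1.04 against −0.03 over all genes tested. B2m, the light chain of the neonatal Fc receptor and of MHC class I, was the highest of the list, at 157 to 389 RPKM.

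Other receptors that signal through the FcR gamma chain or through DAP12 (Tyrobp) were lower or did not pass the unadjusted threshold. Of 12 tested, 6 were lower at an unadjusted p under 0.05 and none was higher, with a median log2 fold change of −1.23. None passed the adjusted threshold. Csf2rb, the common beta chain of the IL-3, IL-5 and GM-CSF receptors, was read at 25.0 and 17.1 RPKM in WT and at 12.0 and 3.77 RPKM in JMJD1B-/- libraries (log2 fold change −1.60). Il3ra, the IL-3 receptor alpha chain, had a log2 fold change of −1.15, and Clec4e, the lectin Mincle, had the lowest log2 fold change of those with an unadjusted p under 0.05 (−1.86). Clec4e was read at 0.324 RPKM in JMJD1B-/- replicate 1, under the floor of 0.491 RPKM for 1 kb there. The NK cell receptor gene Ncr1 was read at 4.36 and 6.90 RPKM in WT, and 9.73 and 1.40 RPKM in JMJD1B-/- replicates 1 and 2, so these libraries stood on both sides of WT as in Fcgr3.

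DAP12 itself, the ITAM adaptor of many myeloid receptors, was read at 32.3 and 28.0 RPKM in WT and at 31.0 and 7.41 RPKM in JMJD1B-/- libraries, so only JMJD1B-/- replicate 2 stood apart. Of the 7 genes tested from the list of adaptors other than Fcer1g, DAP12 among them, 1 was lower and 2 were higher at an unadjusted p under 0.05, with a median log2 fold change of 1.18. The T cell receptor chain Cd3g was read under 0.5 RPKM in WT and at 11.7 and 1.66 RPKM in JMJD1B-/- libraries (log2 fold change 3.03, limma adjusted p = 0.341), and the B cell chain Cd79b had a log2 fold change of −1.43. Hcst, the adaptor DAP10, which carries a PI3-kinase binding motif and no ITAM, was likewise read above both WT libraries in JMJD1B-/- replicate 1 and below both in replicate 2.

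Of 36 kinases and adaptors downstream of activating Fc receptors, 11 were lower and none was higher at an unadjusted p under 0.05, with a median log2 fold change of −0.37. Syk, which binds the phosphorylated ITAM, was read at 57.9 and 45.3 RPKM in WT and at 32.4 and 36.7 RPKM in JMJD1B-/- libraries (log2 fold change −0.57, limma adjusted p = 0.426). Its JMJD1B-/- libraries lay close together, unlike those of the receptors. The largest difference was in Card9, which carries signals from ITAM-coupled receptors to NF-kB, at 34.4 and 27.9 RPKM in WT and 8.34 and 4.95 RPKM in JMJD1B-/- libraries (log2 fold change −2.25, limma adjusted p = 0.0714). The GTPase genes Cdc42 and Rac1, the highest of the list, had log2 fold changes of −0.03 and −0.31.

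Of 15 inhibitors that act behind Fcgr2b and other ITIM receptors, 1 was lower at an unadjusted p under 0.05, the adaptor Dok2 (log2 fold change −1.03, limma adjusted p = 0.459). Their median log2 fold change was −0.21, and Csk, the highest by mean RPKM, had 0.24. Ptprc, the phosphatase CD45, was read at 49.6 and 49.7 RPKM in WT and at 81.1 and 30.3 RPKM in JMJD1B-/- libraries, on both sides of WT, and these average to a log2 fold change of 0.00. Among 15 other ITIM receptors, 4 were lower and none was higher at an unadjusted p under 0.05, with a median of −0.78. Lilrb4, an inhibitory receptor of myeloid and mast cells, passed adjustment, with 29.9 and 36.2 RPKM in WT and 3.10 and 1.32 RPKM in JMJD1B-/- libraries (log2 fold change −3.95, limma adjusted p = 0.0412). The endothelial and myeloid adhesion molecule Pecam1 had a log2 fold change of −1.44. In this list 5 of 15 genes had JMJD1B-/- replicate 1 above and replicate 2 below both WT libraries.

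Of 8 complement receptors and integrins of phagocytosis, 3 were lower and none was higher at an unadjusted p under 0.05, with a median log2 fold change of −0.64. C3ar1, the receptor of the complement fragment C3a, had the largest difference of these (log2 fold change −2.39). Its values in JMJD1B-/- replicates 1 and 2, 0.305 and 0.122 RPKM, lie under the floors of 0.491 and 0.143 RPKM for 1 kb. Itgb3, an integrin of platelets and progenitors, had a log2 fold change of −0.72. Itgb2, the beta chain that forms the complement receptor with the product of Itgam, was read at 31.6 and 27.4 RPKM in WT and at 43.4 and 17.2 RPKM in JMJD1B-/- libraries, again on both sides.

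Among 18 regulators known for Fc gamma receptor genes, 5 were lower and none was higher at an unadjusted p under 0.05, with a median log2 fold change of −0.44. Cebpa, the myeloid transcription factor, was read at 13.4 and 12.7 RPKM in WT and at 1.05 and 2.36 RPKM in JMJD1B-/- libraries (log2 fold change −2.96, limma adjusted p = 0.0768). In Cebpa, JMJD1B-/- replicate 1 was the lower of the pair, the reverse of the Fc receptor genes. PU.1, which the table lists as Sfpi1, was read at 12.2 and 12.9 RPKM in WT and at 10.4 and 4.39 RPKM in JMJD1B-/- libraries. Ifngr1, Jak1 and Jak2, the highest of the list and parts of interferon gamma signalling, had log2 fold changes of −0.48, 0.15 and −0.38.

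Markers of cell types that carry these receptors differed between the JMJD1B-/- libraries in the same direction as the receptors. The 13 monocyte-macrophage markers summed to 229 and 245 RPKM in WT, 182 RPKM in the first JMJD1B-/- library and 55.9 RPKM in the second, and 12 of the 13 were higher in replicate 1 than in replicate 2. Over all genes tested, the median log2 difference of JMJD1B-/- replicate 1 minus replicate 2 was −0.18, and 2 of 12 erythroid and megakaryocyte markers were higher in replicate 1. Among the 13 monocyte-macrophage markers, 7 were lower and none was higher at an unadjusted p under 0.05. Their median log2 fold change was −1.09, and F13a1, a coagulation factor chain of monocytes, was lowest at −2.34. The chemokine receptor Ccr2 was read at 36.5 and 57.0 RPKM in WT and at 46.7 and 8.20 RPKM in JMJD1B-/- libraries, and Irf8 and Lyz2 had log2 fold changes of −1.50 and −0.56.

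The 11 T and NK cell markers summed to 30.1 and 40.4 RPKM in WT, and 72.5 and 18.5 RPKM in JMJD1B-/- replicates 1 and 2. All 11 were higher in replicate 1 than in replicate 2. Of these, 6 stood above both WT libraries in replicate 1 and below both in replicate 2, against 5.56% of all genes tested. This is the order of Fcgr3 and Fcgr2b, and the NK cell genes Klrb1c, Ncr1 and Klrd1 were among the 6. Cd8a, also among the 6, was below WT replicate 1 by only 0.162 against 0.164 RPKM. Of the list, 1 marker was lower, Nkg7 (log2 fold change −1.30), and 2 were higher at an unadjusted p under 0.05, with a median of 0.31. Gzma, a granzyme, was read at 1.68 and 5.29 RPKM in WT and at 12.2 and 0.859 RPKM in JMJD1B-/- libraries.

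The 14 neutrophil markers listed summed to 315 and 210 RPKM in WT and to 146 and 66.2 RPKM in JMJD1B-/- libraries. Of the 12 that passed the filter and were tested, 7 were lower and 3 higher at an unadjusted p under 0.05, with a median of −1.40. The early granule gene Prtn3 passed adjustment (log2 fold change −2.11, limma adjusted p = 0.04998), Mpo and Ctsg had −2.65 and −2.13, and the late gene Retnlg had 3.43. Retnlg was read at 7.10 and 0.266 RPKM in WT and at 46.5 and 6.45 RPKM in JMJD1B-/- libraries, so the genotypes overlapped. Of 11 basophil, eosinophil and mast cell markers, 8 were lower and none was higher, with a median of −2.37, and the basophil protease Prss34 passed adjustment (log2 fold change −3.35, limma adjusted p = 0.0064). Their sums, 6156 and 1682 RPKM in WT and 4603 and 1222 RPKM in JMJD1B-/- libraries, were mostly Prg2, an eosinophil granule gene. Of 4 B cell markers tested, Cd79b was lower and the kinase gene Blk higher at an unadjusted p under 0.05, with a median of −0.95. Blk was read at 0.613 and 0.668 RPKM in WT and at 24.6 and 3.71 RPKM in JMJD1B-/- libraries (log2 fold change 3.71), while Blnk and Cd22 had log2 fold changes of −0.46 and −1.84. The defining B cell genes Ms4a1 and Pax5 were not analysed here.

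Of 9 dendritic cell markers 2 were lower and none was higher at an unadjusted p under 0.05, and of 12 stem and multipotent progenitor markers 5 were lower and none was higher, with medians of −0.78 and −0.71. Flt3, a receptor of lymphoid and myeloid progenitors, had the largest difference of the stem list (log2 fold change −1.84). Of 12 erythroid and megakaryocyte markers, 2 were lower and 7 were higher, with a median of 0.64, and Hba-a1, an alpha globin gene, was the furthest up at 2.26. The part of these cell types in the values of Fcgr3, Fcgr2b and Fcer1g was not tested.

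**Figure D3:**
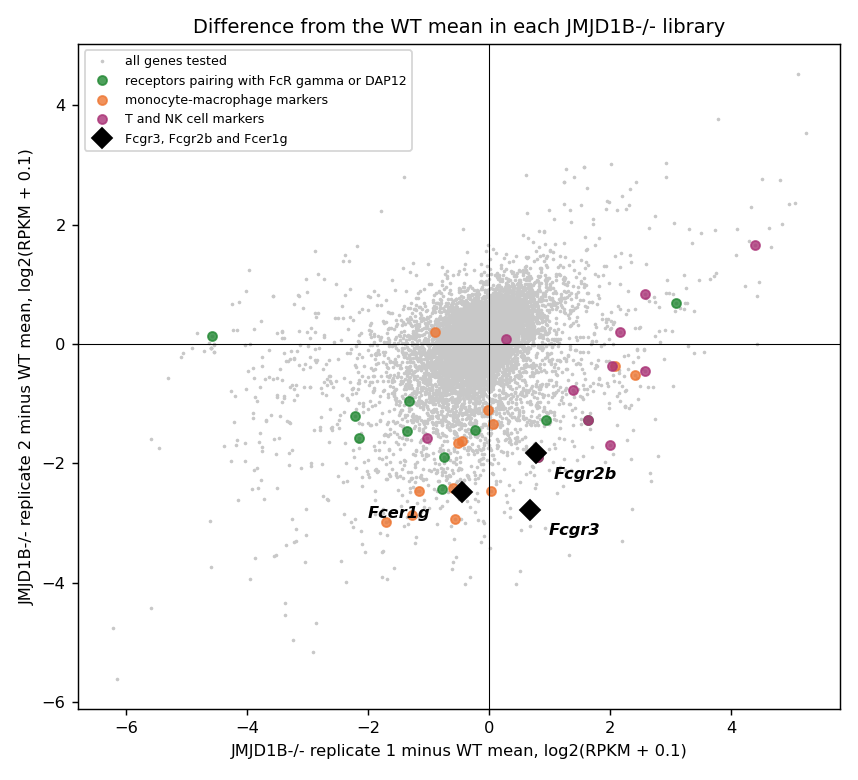
Difference of each JMJD1B-/- library from the WT mean in log2(RPKM + 0.1), replicate 1 on the horizontal and replicate 2 on the vertical axis; grey points are the 11863 genes tested and coloured points are lists. Fcgr3 and Fcgr2b lie at lower right (0.68 and −2.78, 0.78 and −1.83). Several T and NK cell markers share this quadrant, but only Ncr1 lies close to Fcgr2b and none lies as low as Fcgr3. Fcer1g lies at lower left (−0.46 and −2.49) beside monocyte-macrophage markers.

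The genes whose pattern over the 4 libraries was most like each member were ranked among 11212 genes with a mean of at least 1 RPKM, by the root mean square difference of log2(RPKM + 0.1) after centring each gene. For Fcgr3 these were Sytl3 (0.15), Gm15987 (0.18) and Clec7a (0.30), and Fcgr2b and Fcer1g ranked 15 and 53. Clec7a, the beta-glucan receptor Dectin-1, was read at 1.41 and 1.63 RPKM in WT and at 3.44 and 0.188 RPKM in JMJD1B-/- libraries. For Fcgr2b they were Itgam (0.094), BC094916 (0.095) and Klrb1f (0.12), and Fcgr3 and Fcer1g ranked 119 and 271. Itgam, the integrin chain CD11b of myeloid and NK cells, was read at 8.74 and 7.00 RPKM in WT and at 12.0 and 2.27 RPKM in JMJD1B-/- libraries. For Fcer1g they were Clec12a (0.079), Adora2b (0.10) and 1110028F11Rik (0.11), while Fcgr2b and Fcgr3 ranked 280 and 330. Clec12a, an inhibitory lectin of myeloid cells, was read at 25.3 and 16.8 RPKM in WT and at 14.7 and 3.43 RPKM in JMJD1B-/- libraries. With 4 libraries these likenesses describe the order and spacing of the libraries.

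The genes that lie beside the members on their chromosomes were examined in the same fit. Of the 39 genes among the 5 nearest on each side of a member in RefSeq order, 11 are listed in the table, and none was lower or higher at an unadjusted p under 0.05 in limma. Dusp12, a phosphatase gene near Fcgr2b, was read at 7.24 and 5.99 RPKM in WT and at 7.57 and 7.08 RPKM in JMJD1B-/- libraries. Beside Fcgr1 stand 4 histone genes, and their messages mostly lack the poly(A) tail on which these libraries select. They were nevertheless read high, from 99.7 RPKM (Hist2h4, WT replicate 2) to 1039 RPKM (Hist2h3b, JMJD1B-/- replicate 2). In all 4 genes both JMJD1B-/- libraries stood above both WT libraries, as in 20.1% of all genes tested.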

How the data were processed

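RNA-seq libraries of WT and JMJD1B-/- HSPCs, 2 of each genotype, were analysed, and those of ChIP-seq were left out. The authors deposited 1 table of RPKM values, to which they had added 1, and the added 1 was removed. The submitters' processing notes name TopHat2, Novoalign and mm9 with no role; the counting program and the annotation are not given in the sources used here. Entries that share a name (42 names) were averaged. Depth was estimated from 209 genes whose 4 values lie within the rounding of the printed digits, and at most 0.02 reads, of whole numbers; with RefSeq lengths, 36 of them gave 1 depth to within 1% and at most 2 any other. Genes were kept from a mean RPKM of 0.5 upwards, and log2(RPKM + 0.1) was compared with limma 3.58.1 in R 4.3.3. The fit used a trend, no replicate term, a two-sided test and Benjamini-Hochberg adjustment over all genes tested. It was tried on simulated counts with the same spread in all 4 libraries, which does not cover the wider gap between the JMJD1B-/- libraries. The pseudocount shrinks the fold change of low genes. The design text names biological replicates, but not the mice behind each or a shared litter, and p-values measure the spread between these libraries. A block on the replicate number was an alternative, and a number was not taken as a pair.

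The members and lists were chosen with earlier results of these data known. The text names the members, Kdm3b and listed genes with an adjusted p under 0.05. Of most other lists it names genes with the highest mean RPKM or the largest fall or rise at an unadjusted p under 0.05. Not every such gene was described. Cd200r3 (log2 fold change −4.10) had the largest fall of the basophil, eosinophil and mast cell list, and Siglech (−1.41) that of the dendritic cell list. Of 6 NADPH oxidase genes tested, 1 was lower and none was higher at that threshold, with a median of −0.54. The text also names the 3 genes most like each member and some neighbours among the 5 nearest. Sfpi1, Procr, Tyrobp as a level, the NK cell genes Klrb1c and Klrd1 and the B cell genes were chosen after their values were seen. So were Dusp12, Hist2h3b and Hist2h4 among the neighbours and the genes split around WT as Fcgr3 was. Other settings tried were pseudocounts of 1 and of 0.01, the table without the filter or with a minimum of 1 RPKM, median-ratio scaling, quantile normalization, limma without a trend, a gene-by-gene test, the replicate block and leaving out each library. Promoter windows and names came from RefSeq (GRCm38.p6). Python 3.11.15, pandas 2.3.3, numpy 2.4.6, scipy 1.17.1 and matplotlib 3.10.9 were used.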

Additional observations from a re-analysis of the deposited data

How the results depend on the processing

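Fcgr3, Fcgr2b and Fcer1g kept a negative log2 fold change in all 9 alternatives that used all 4 libraries, and Fcgr3 and Fcgr2b passed an adjusted p of 0.05 in none of them. With the replicate block, Fcer1g passed (log2 fold change −1.47, limma adjusted p = 0.00603), while the labels do not say that the numbers pair the mice and the deviations of the libraries numbered 1 had r = −0.05 across genes. With each library left out in turn, the log2 fold change ran from −2.78 to 0.68 for Fcgr3, from −1.83 to 0.78 for Fcgr2b and from −2.49 to −0.46 for Fcer1g. Both positive values came without JMJD1B-/- replicate 2. The log2 difference in the ratio of Fcgr3 to Fcgr2b ran from −0.99 to −0.10, and its planned form with Fcgr3 alone is the value reported, since Fcgr1 and Fcgr4 were not analysed here.

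The number of genes lower after adjustment, 4 as reported, was 15 and 2 with pseudocounts of 1 and 0.01, 2 with a minimum of 1 RPKM, 173 with the replicate block, and 0 with median-ratio scaling, quantile normalization, the gene-by-gene test or limma without a trend. The number higher, 1 as reported, was 3 with a pseudocount of 1, 83 with the replicate block and 0 in limma without a trend and in the gene-by-gene test. With each library left out in turn, 0 to 653 genes were lower and 1 to 336 higher after adjustment, and 190 to 1777 lower and 127 to 1367 higher at an unadjusted p under 0.05. The causes were not tested. Kdm3b lost its adjusted call under median-ratio scaling, quantile normalization, the gene-by-gene test, limma without a trend and without either WT library. Depth limits JMJD1B-/- replicate 1 most.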
